A study of Homo sapiens with 4 samples.

Results

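KIT, the platelet-derived growth factor (PDGF) receptors and their relatives CSF1R and FLT3, together with the ligands KITLG, PDGFA, PDGFB, PDGFC and PDGFD, were followed in GIST-T1 cells that had received a miR-34a mimic. These 10 genes were chosen by name, and all probes carrying exactly one of these names in the array annotation were used, which gave 13 of the 50599 probes on the array. PDGFRA was 2.9-fold lower with the miR-34a mimic than with the negative control, and KIT was 1.62-fold to 1.67-fold lower on its 3 probes. KITLG and PDGFRB differed by less than 1.5-fold, with overlapping arrays. The other 6 genes, CSF1R, FLT3, PDGFA, PDGFB, PDGFC and PDGFD, were not well above background on both arrays of either condition.

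GIST-T1 is a human cell line that was established from a gastrointestinal stromal tumor (GIST), and all arrays came from this line, so that genotype did not differ between the groups. The line carries an activating KIT mutation, by the study's account. The miR-34a mimic group received 100 pmol of mirVana miR-34a mimic, a small RNA duplex made to stand in for the mature miRNA, and the negative control group received 100 pmol of the mirVana mimic Negative Control #1. Both were delivered by Nucleofector electroporation into 3000000 cells, and total RNA was taken 48 h later. There were 2 arrays per group. Untransfected cells were not analysed here, and nothing in the labels says whether the arrays of a group came from separate cultures, so the p-values measure only the spread between these arrays, which may be technical.

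KIT, PDGFRA, PDGFRB, CSF1R and FLT3 form one class of receptor tyrosine kinases, in which a dimeric ligand joins receptor molecules at the cell surface and the kinase domains phosphorylate each other. KITLG, also called stem cell factor, is the ligand of KIT, and the PDGFs bind PDGFRA and PDGFRB. Most GISTs carry an activating mutation of KIT or, less often, of PDGFRA, and drugs that inhibit both kinases are used against these tumors. miR-34a is a tumor suppressor miRNA that is induced by p53, and a miRNA recognizes an mRNA mainly through its seed.

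The mature strand whose function the mimic supplies is shown first because its seed, bases 2 to 8 in capitals, defines the matches searched for. It is encoded on chromosome 1 (GRCh38.p14, chr1:9151735-9151756, minus strand). Among the 2370 mature human miRNAs in the RefSeq table used here, which is not complete and has no mature entry for hsa-miR-34c-5p, 3 have this seed, and the other two lie on chromosome 5.
hsa-miR-34a-5p: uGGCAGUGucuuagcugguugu
hsa-miR-449a: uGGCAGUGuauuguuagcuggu
hsa-miR-449b-5p: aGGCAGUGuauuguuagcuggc

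The reporter oligonucleotides of the study carry a pair of putative miR-34a sites of PDGFRA, which is why both are shown. Positions are counted from 1 at the 5′ end of the sense oligonucleotide, and capitals mark the seed match in the wild-type versions and the changed bases in the mutant versions. The first site, ACTGCCA, spans positions 31 to 37 and pairs with 6 bases of the miRNA from base 2 on, followed by an A. The second site, CACTGCC, spans positions 60 to 66 and pairs with 7 bases. Each mutant site has 5 changed bases and no longer holds the match. By the study's account, the miR-34a mimic lowered reporter activity with the wild-type sites but not with the mutant sites.
First site, wild type: atagacttggagaatACTGCCAa
First site, mutant: atagacttggagaataTCATTaa
Second site, wild type: tatgacaagctgtatCACTGCCt
Second site, mutant: tatgacaagctgtatcGTGATct

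The 13 probes themselves, each of 60 bases, hold neither of these matches, on the strand of the mRNA. Among all probes, 0.435% hold CACTGCC, 0.393% hold ACTGCCA, and 0.128% hold both as one overlapping run. A window of 60 bases is a small part of an mRNA, and transcripts were not searched here.

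Of the probes, 41.8% to 45.2% were well above background per array, and 21453 probes that were so on both arrays of at least 1 group, with a value on every array, were tested with limma and Benjamini-Hochberg adjustment. Values given as log2 signals are relative to the 75th percentile of the array, and processed signals are the scanner intensities before this scaling. With 2 arrays per group, limma called 0 probes at an adjusted p under 0.05, although 5216 had an unadjusted p under 0.05. With the variance modeled along the signal, limma called 771 probes lower (3.59%) and 817 higher (3.81%), and the methods' t-test called 1 lower and 0 higher probes after the same adjustment. All 6 GIST markers examined (KIT, ANO1, ETV1, PRKCQ, CD34 and PDGFRA, the first and last of them members) were detected on all 4 arrays, that is, well above background. So were 2 of 4 smooth muscle markers (DES and ACTG2) and 2 of 4 epithelial markers (KRT8 and EPCAM), but 0 of 4 blood and mast cell, 0 of 3 endothelial and 0 of 3 nerve and Schwann cell markers.

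**Figure D1:**
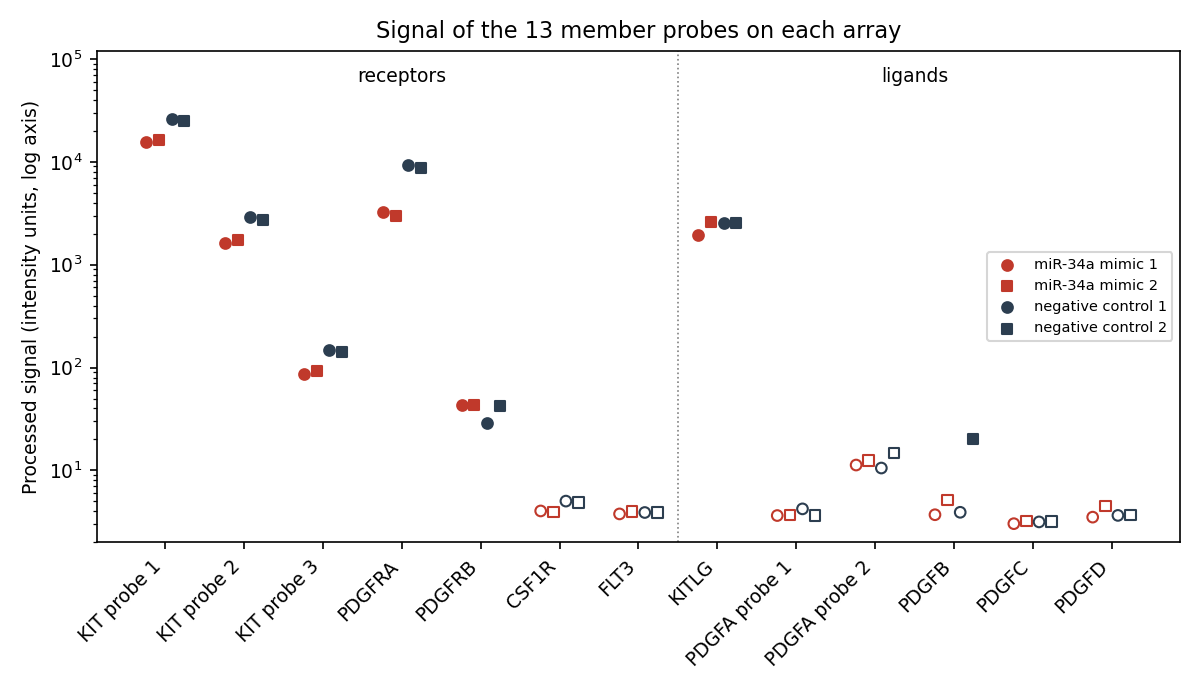
Processed signal (intensity units, log axis) of the 13 probes on each array, with receptors on the left and ligands on the right. Filled symbols are well above background and open symbols are not, and signals of different probes cannot be set against each other. The 6 probes that are filled on every array are those of KIT, PDGFRA, PDGFRB and KITLG, and PDGFB is filled on negative control 2 only.

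KIT, the receptor for stem cell factor on interstitial cells of Cajal and the main driver in GIST, was measured by 3 probes. KIT probe 1 (accession NM_000222) lies at chr4:55606511-55606570 of hg19, the build of the array annotation, and was spotted 10 times. Its processed signal was 15498 and 16152 with the miR-34a mimic, against 25904 and 25128 with the negative control. The groups were apart, with the miR-34a mimic the lower one. The log2 difference was -0.70 (standard error 0.055, 95% interval -0.86 to -0.54), which is 1.62-fold lower.

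The repeated spots of KIT probe 1 show how precise a single array was. Over the spots without an outlier flag, the signal on miR-34a mimic 1 ran from 13004 to 16878 with a median of 15827 (10 spots), and on miR-34a mimic 2 from 13989 to 18236 with a median of 15801 (9 spots). On negative control 1 it ran from 23348 to 27671 with a median of 26187, and on negative control 2 from 22145 to 26895 with a median of 25470 (9 spots each). No spot of a miR-34a mimic array reached the lowest spot of a negative control array. The coefficient of variation between spots was 5.48% to 8.42%. At the 9 spot positions without a flag on any array, the log2 difference lay between -0.76 and -0.63, so that all 9 were lower by more than 1.5-fold. Spots of one array share the RNA and are not replicates of the transfection.

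**Figure D2:**
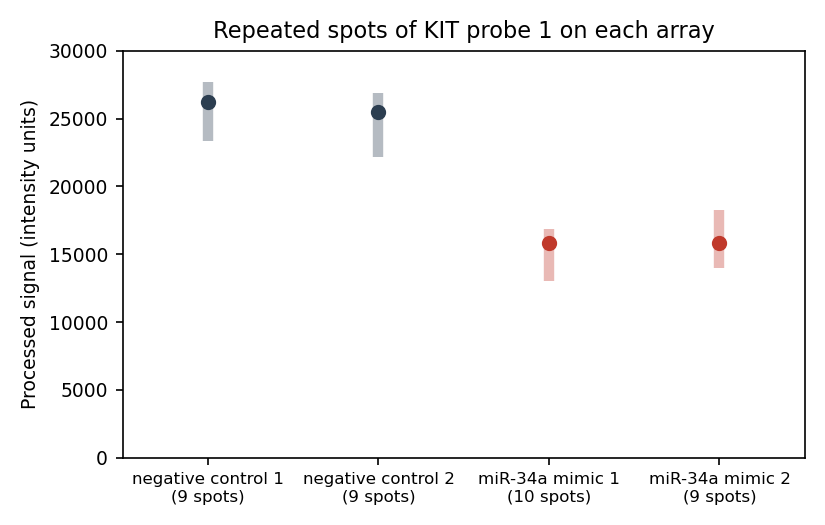
Processed signal (intensity units, linear axis from 0) of the repeated spots of KIT probe 1 on each array. Points are medians over the unflagged spots and bars run from the lowest to the highest spot, and the bars of the miR-34a mimic arrays end at 16878 and 18236, below those of the negative control arrays, which start at 23348 and 22145.

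KIT probe 2 (accession NM_001093772, transcript variant 2 in the annotation, which lists variant 1 for it as well) lies at chr4:55569965-55570024. Its processed signal was 1642 and 1750 with the miR-34a mimic and 2926 and 2708 with the negative control. KIT probe 3 (accession NM_000222) lies between the other KIT probes, at chr4:55593626-55593685, and gave 86.0 and 93.5 with the miR-34a mimic against 149 and 142 with the negative control. On both probes the miR-34a mimic arrays were again the lower ones, without overlap. The log2 difference was -0.74 (standard error 0.065) on KIT probe 2, 1.67-fold lower, and -0.70 (standard error 0.067) on KIT probe 3, 1.63-fold lower. The difference on each KIT probe exceeded the gap between replicates, which was at most 0.11 on the log2 scale. The adjusted p was 0.095 by limma for each of the 3 probes, and 0.00705, 0.00942 and 0.0216 for KIT probes 1, 2 and 3 with the variance modeled along the signal. Whether any KIT probe covers the mutated bases of the line was not examined here. The 3 probes measure the same gene on the same arrays and are not independent of each other, and with normexp background correction KIT probe 3 was at -0.47, within 1.5-fold.

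PDGFRA, the receptor for most PDGF dimers and the alternative driver in GIST, was measured by 1 probe (accession NM_006206) at chr4:55163989-55164048. Its processed signal was 3243 and 2965 with the miR-34a mimic, against 9266 and 8623 with the negative control. Both miR-34a mimic signals were far below either control signal. The log2 difference was -1.53 (standard error 0.076, 95% interval -1.75 to -1.32), 2.9-fold lower, with an adjusted p of 0.095 by limma and of 0.00472 with the variance modeled along the signal. The PDGFRA probe ranked 123 from the lowest difference among the 21453 probes tested, and the KIT probes ranked 642 to 731. The study had itself reported PDGFRA as lower with the miR-34a mimic, by microarray and by quantitative RT-PCR. Its microarray result comes from the deposited arrays and is not separate from the values here, whereas the quantitative RT-PCR is another measurement. An array reads the RNA of a whole culture, so fewer cells with a transcript and less transcript per cell cannot be told apart.

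Ratios between member probes on the same array do not depend on how the arrays are scaled, and 15 pairs among the 6 detected probes were compared. The log2 ratio of KIT probe 1 over PDGFRA was 2.26 and 2.45 with the miR-34a mimic and 1.48 and 1.54 with the negative control, a difference of 0.84. The ratio of KIT over PDGFRA was thus 1.79-fold higher with the miR-34a mimic on KIT probe 1, 1.74-fold on KIT probe 2 and 1.78-fold on KIT probe 3, without overlap. The KIT probes kept close ratios to each other, with differences of 0.04, 0.01 and -0.04. Even the last of these, KIT probe 2 over KIT probe 3, was without overlap. Of the 15 pairs, 12 were without overlap. All pairs except PDGFRB over KITLG hold a probe of KIT or PDGFRA, whose own arrays were apart. The share without overlap over all probe pairs was not computed, so lack of overlap alone says little about a pair. An exact two-sided permutation test of 2 arrays against 2 cannot give a p below 0.33, and for KIT over PDGFRA it gave 0.33 (0.42 adjusted over the 15 pairs), so the test could not have called any of them.

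PDGFRB, the PDGF receptor typical of pericytes and other mesenchymal cells, was measured by 1 probe (accession NM_002609) at chr5:149493464-149493523. Its processed signal was 43.0 with the miR-34a mimic on either array, against 28.8 and 42.4 with the negative control. Only negative control 1 stood apart, and negative control 2 lay beside the miR-34a mimic arrays. The log2 difference was 0.29 (standard error 0.23), with a 95% interval from -0.38 to 0.97 that holds both 0 and a 1.5-fold increase, and the adjusted p was 0.475 by limma. Without negative control 1 the log2 difference was -0.0095, and without negative control 2 it was 0.59.

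CSF1R, the receptor for colony stimulating factor 1 on macrophages, was measured at chr5:149432861-149432920 by a probe with 10 spots. None of these spots was well above background on any array, and the median processed signals were 3.78 and 4.05 with the miR-34a mimic and 3.97 and 4.07 with the negative control. FLT3, a receptor of early blood cells, was measured at chr13:28577993-28578051 and gave 3.78, 3.98, 3.90 and 3.91 on miR-34a mimic 1 and 2 and negative control 1 and 2, not well above background on any of them. Neither gene has a fold change here, since both conditions gave only a bound.

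**Figure D3:**
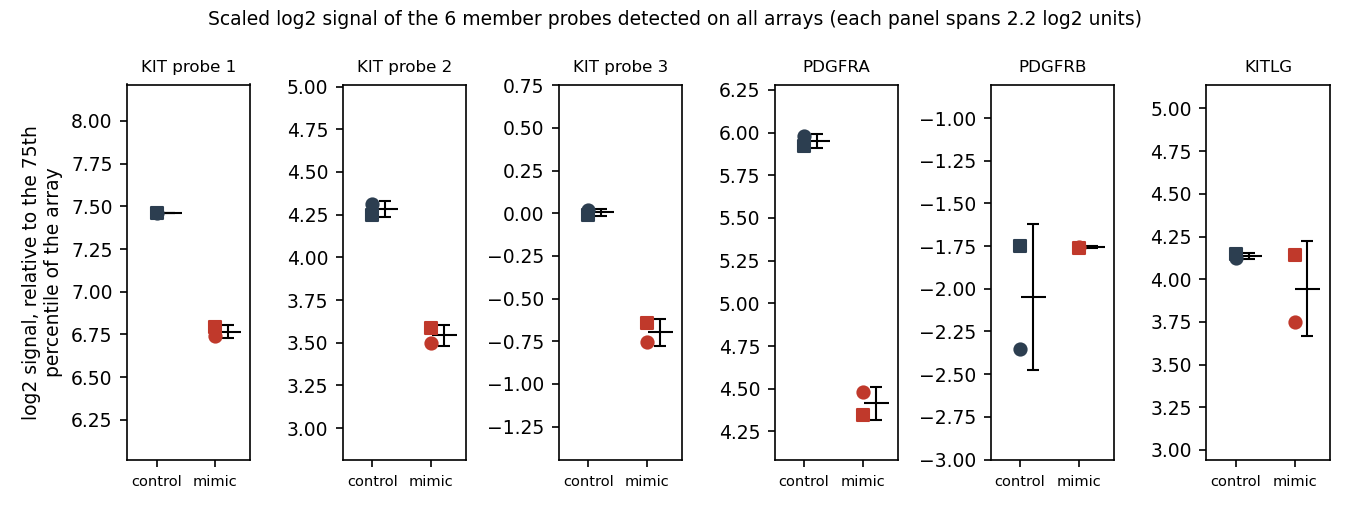
Scaled log2 signal of the 6 probes detected on every array, with negative control arrays on the left and miR-34a mimic arrays on the right of each panel (circles, replicate 1; squares, replicate 2). Black bars are the mean and SD of the 2 arrays, and each panel has its own position but the same span of log2 units. The groups are apart for KIT and PDGFRA, and share values for PDGFRB and KITLG.

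Among the ligands, KITLG was measured by 1 probe (accession NM_000899) at chr12:88886653-88886712. Its processed signal was 1950 and 2572 with the miR-34a mimic, against 2564 and 2526 with the negative control. Here miR-34a mimic 1 alone was low, and miR-34a mimic 2 lay within the controls once scaled, at a log2 signal of 4.14 against 4.12 and 4.15. The log2 difference was -0.19 (standard error 0.16), 1.14-fold lower, with an adjusted p of 0.485 by limma. Its 95% interval, -0.64 to 0.26, holds both 0 and a 1.5-fold decrease. Without miR-34a mimic 1 the difference was 0.0050. The log2 ratio of KIT probe 1 over KITLG was 2.99 and 2.65 with the miR-34a mimic and 3.34 and 3.32 with the negative control. These did not overlap (exact two-sided permutation p = 0.33, the lowest possible), as was so for 12 of the 15 pairs.

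PDGFA, which pairs with itself or with PDGFB to form the classical PDGF dimers, was measured by 2 probes on chromosome 7. The probe at chr7:536929-536988 was spotted 10 times, and 0 of its spots were well above background on any array, with median signals of 3.62 and 3.65 with the miR-34a mimic and 3.84 and 3.60 with the negative control. The probe at chr7:557032-557091 gave 11.3 and 12.4 with the miR-34a mimic and 10.6 and 14.7 with the negative control, also not well above background on any array. The PDGFB probe at chr22:39620099-39620158 gave 3.71 and 5.15 with the miR-34a mimic and 3.92 and 20.1 with the negative control. Only negative control 2 was well above background for PDGFB, while negative control 1 gave a signal like those of the miR-34a mimic arrays. The mean of the scaled log2 signals of PDGFB in the negative control corresponded to 0.586 times the lowest signal at which the miR-34a mimic arrays detected a probe, so no fold change is given.

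PDGFC and PDGFD, which are secreted as latent dimers and need proteolytic cleavage before they bind their receptors, were not well above background on any array. The PDGFC probe at chr4:157682899-157682958 gave signals from 3.04 to 3.23, and the PDGFD probe at chr11:103778386-103778445 gave signals from 3.52 to 4.52. Among the 5 ligands, KITLG was the only one detected on all 4 arrays, by these probes and at this signal.

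**Figure D4:**
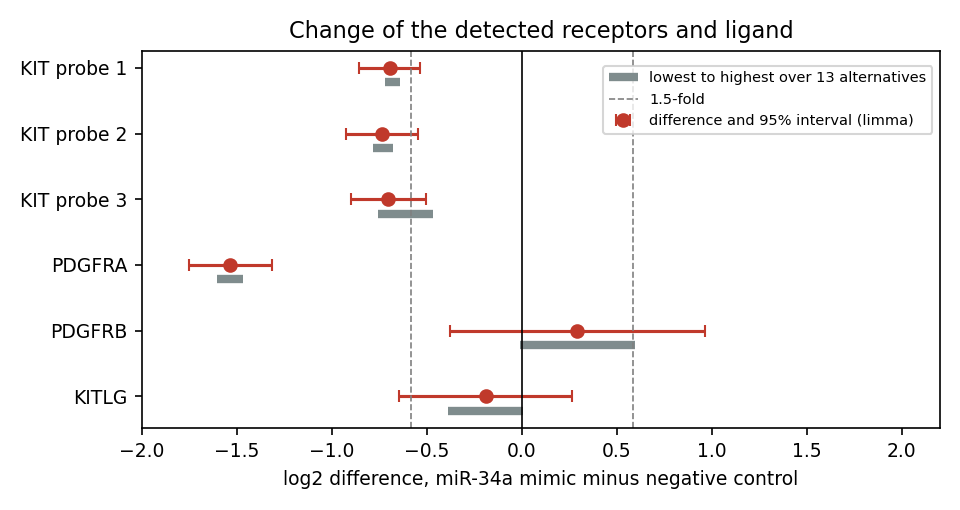
Log2 difference (miR-34a mimic minus negative control) of the 6 tested probes, with its 95% interval from limma in red, and in grey the lowest to highest difference over all settings tried. Dashed lines mark 1.5-fold. The grey bars of KIT probes 1 and 2 and of PDGFRA stay beyond 1.5-fold lower, that of KIT probe 3 reaches -0.47, and those of PDGFRB and KITLG touch 0. At its other end the PDGFRB bar reaches 0.59, just beyond 1.5-fold higher.

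Of the 13 probes, 6 for 4 genes were tested (KIT, PDGFRA and PDGFRB among the receptors, KITLG among the ligands), and 4 probes of 2 genes, KIT and PDGFRA, were lower by more than 1.5-fold, against a background of 4.79% of all probes tested. None was higher by more than 1.5-fold, against 2.11% of all probes. The same 4 had both miR-34a mimic arrays below both negative control arrays, which was the case for 30.1% of all probes tested, and none had them above both, against 30.4%. KIT supplies 3 of the 4 lower probes. By gene, 2 of the 4 tested were lower by more than 1.5-fold, against 4.82% of all genes with 1 probe per gene. The median log2 difference of the 6 probes was -0.70, in which KIT counts 3 times, and that of all probes tested was -0.01. At an adjusted p under 0.05, limma called 0 of the 6, and 4 had an unadjusted p under 0.05, against 24.3% of all probes tested. The methods' t-test called 0 as well, and limma with the variance modeled along the signal called the 4 probes of KIT and PDGFRA lower (background 3.59%).

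A list of 48 genes that act next to these receptors was examined with 1 probe per gene, the brightest one tested. It holds adaptors and enzymes recruited to the activated receptor, negative regulators, enzymes that cleave the ligands, and the ligands of CSF1R and FLT3. All 48 were on the array and 43 could be tested. Of these, 1 was lower by more than 1.5-fold (2.33%, against 4.82% of all genes) and 0 were higher (against 1.96% of all genes). The median log2 difference was 0.04, against -0.01 over all genes. At an adjusted p under 0.05, limma called 0 of the 43, and 11 had an unadjusted p under 0.05 (25.6%, against 24.9% of all genes).

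The adaptors and enzymes, 26 of them tested, ranged from -0.35 to 0.37 in log2 difference with a median of 0.07. GRB2, the adaptor that links the receptors to RAS, had a difference of 0.17 (standard error 0.052, adjusted p = 0.183 by limma). PIK3R1, a regulatory subunit of the PI3-kinase that binds PDGF receptors directly, had a difference of 0.12 (standard error 0.09, adjusted p = 0.445 by limma). The lowest in this class was CRKL, an adaptor, at -0.35 (standard error 0.058, adjusted p = 0.104 by limma). PTPN11, the phosphatase SHP2, had 3 probes that disagreed: the brightest gave 0.09, and the others gave -0.36 and -0.86. The last was 1.81-fold lower, with miR-34a mimic arrays that themselves differed, at 1.47 and 0.32.

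Of the 9 negative regulators tested, none differed by more than 1.5-fold, and their median was -0.09. CBL, the ubiquitin ligase that marks activated receptors for degradation, was at -0.10 (standard error 0.066), and its relative CBLB was at 0.46 (standard error 0.13, adjusted p = 0.164 by limma). SOCS1, a suppressor of cytokine and KIT signaling, was at 0.41 (standard error 0.08, adjusted p = 0.121 by limma).

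Among the 6 ligand-processing enzymes, ST14 (matriptase, a protease that can cleave PDGFC and PDGFD) was lower by more than 1.5-fold. It was the one gene of the list to be so on its brightest tested probe, with a log2 difference of -0.76 (standard error 0.35, adjusted p = 0.284 by limma). Its log2 signals were -0.30 and -1.19 with the miR-34a mimic and 0.12 and -0.10 with the negative control, so that miR-34a mimic 2 set most of the difference. Without that array it was -0.31. PLAU, urokinase, which can activate PDGFD, was lower on both of its probes, at -0.43 and -0.37, with adjusted p = 0.0954 and 0.151 by limma. PLAT, the tissue plasminogen activator that activates PDGFC, was at -0.04 (standard error 0.059). Among the ligands of the undetected receptors, CSF1 gave -0.15 and 0.40 on 2 probes, FLT3LG gave 0.21 (standard error 0.18), and IL34 could not be tested.

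**Figure D5:**
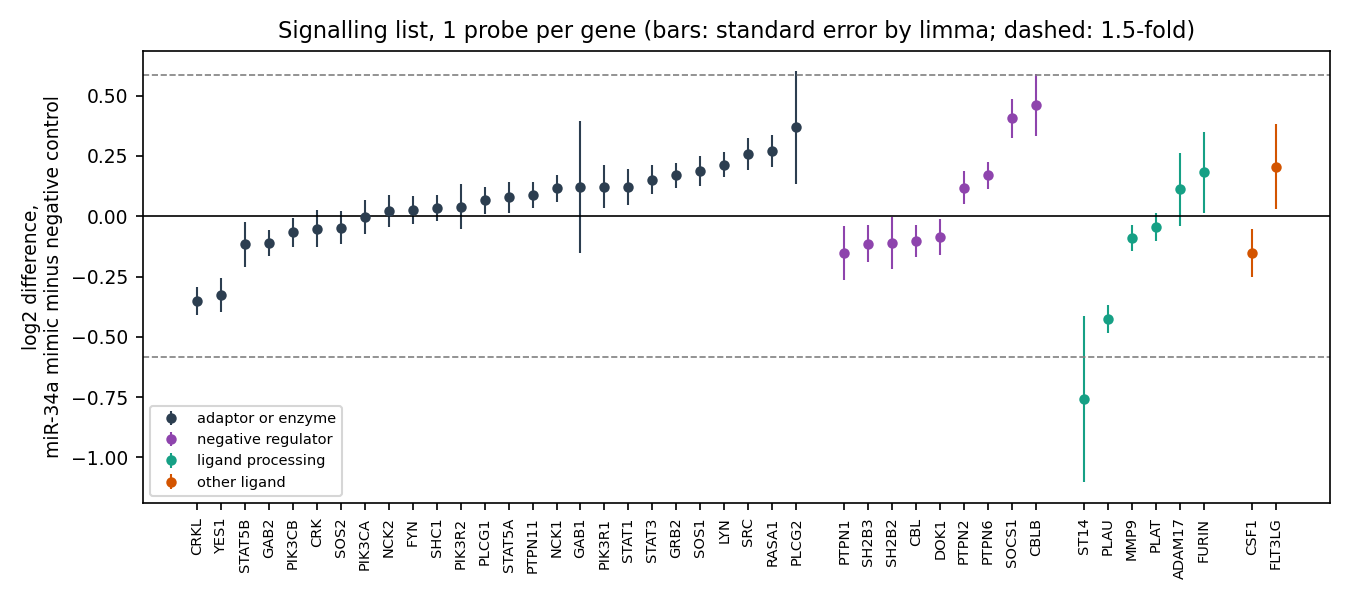
Log2 difference (miR-34a mimic minus negative control) of the 43 tested genes of the signaling list, 1 probe per gene, ordered within each class. Bars are standard errors by limma and dashed lines mark 1.5-fold; only ST14 lies beyond a dashed line, with a standard error of 0.35.

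The genes with the pattern most like KIT and PDGFRA were found by the Euclidean distance between log2 signals over the 4 arrays, each probe centred on its own mean. The 20068 probes detected on every array were compared. Nearest to KIT probe 1 were SCML2 (distance 0.015, log2 difference -0.69), TSEN15 (0.019, -0.71) and HDAC1 (0.041, -0.67). Nearest to PDGFRA were SNAR-G2 (distance 0.062, log2 difference -1.59), MDM4 (0.16, -1.42) and SNAR-G1 (0.165, -1.37). With 4 arrays this distance reflects little more than the size of the difference between the groups, and the 2 SNAR genes are near-identical copies whose probes may share transcripts.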

How the data were processed

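RNA from 4 samples was hybridized to one-color Agilent arrays. The authors deposited Feature Extraction 10.7.3.1 output, in which the processed intensity is background-subtracted and detrended within an array but not scaled between arrays, and a table of the same intensity values, which differed by at most 0.496%. All arrays share 1 slide and 1 scan, on which the groups lie at different positions, so position and group cannot be told apart. Control and outlier-flagged spots were left out (293 to 424 of 58717 per array, 0 saturated), log2 spot values of a probe were averaged, a probe counted as detected if at least a share of 0.5 of its spots was, and each array was shifted by its 75th percentile. limma 3.58.1 in R 4.3.3 was run over all 21453 probes, since the paper names no test for the arrays. The methods' t-test is the t-test that the paper names, beside ANOVA, for continuous variables in general. The calculations were tested on simulated data. Sequences were read with pandas 2.3.3. The members, lists and alternatives were chosen with earlier results of these data known. Named are every member, list genes beyond 1.5-fold and the 3 nearest genes of KIT and PDGFRA; the other list genes named were chosen after their values were seen. Exon and UTR positions of the probes, transcripts and proteins were not analysed here. The number of arrays limits the precision.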

Additional observations from a re-analysis of the deposited data

How the results depend on the processing

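The alternatives were quantile normalization, the 75th percentile over probes detected on all arrays, normexp background correction (offset 50), no filter or a stricter filter on dim probes, the authors' table, a replicate block, a variance trend along the signal, the methods' t-test and leaving out each array. KIT and PDGFRA were lower under all of them. Their adjusted p passed 0.05 with normexp (log2 differences -0.66, -0.68 and -0.47 for KIT probes 1 to 3 and -1.50 for PDGFRA) and with the variance trend (-0.70, -0.74, -0.70 and -1.53). When each array was dropped in turn, so that the lone array is assumed to vary like the pair of the other group, KIT probe 1 ranged from -0.72 to -0.67, KIT probe 2 from -0.78 to -0.70, KIT probe 3 from -0.76 to -0.65 and PDGFRA from -1.60 to -1.47, and the adjusted p rose to at most 0.354. KITLG ranged from -0.39 to 0.0050 and PDGFRB from -0.0095 to 0.59, the sign turning without miR-34a mimic 1 and without negative control 1. The replicate block gave the same differences with an adjusted p of 0.223 for KIT and PDGFRA and changed no call. Deviations of same-numbered arrays were hardly correlated over the tested probes (-0.03). With 2 pairs this cannot show whether the replicate numbers pair the arrays. The count of member probes lower by more than 1.5-fold was 3 with normexp, and 5 without a filter or without negative control 1. In both cases with 5, PDGFB is added, whose only detection was on negative control 2. Over all probes tested, this count was 184 of 21453 with normexp and 6811 of 50546 without a filter. It was 2732 of 23203 without negative control 1, against 1028 of 21453 in the main setting. With an array left out, no member probe was higher by more than 1.5-fold except PDGFRB without negative control 2, at 0.59. Without that array, 567 of all 22145 probes tested were higher by more than 1.5-fold.

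Over all probes, 1028 were lower and 453 higher by more than 1.5-fold. Normexp gave 184 and 68, no filter 6811 and 2069, the stricter filter 512 and 285, and quantile normalization 772 and 703, so 52.3% of the changed probes were lower against 69.4%. Leaving out an array gave 996 to 2732 lower and 566 to 941 higher probes, the most lower without negative control 1. Of the signaling list, 0 genes were lower with normexp, 0 to 1 were lower and 0 to 1 higher with an array left out, and 2 were higher without a filter. The causes were not tested. Signal over background limits what can be said of the 6 genes without a tested probe.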
